A study of Mus musculus with 16 samples.

Results

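Fibroblasts given 60 µM kaempferol (K) together with 60 µM genistein (G) were compared with fibroblasts given 60 µM G alone, on 4 arrays out of 16. Both flavonoids were given at once as a mixture, so K added to G names this comparison and not an order of treatment. The members are the 2 arrays of the 120 µM 1:1 mixture, which contains 60 µM of each flavonoid, and the 2 arrays of 60 µM G, so that K is the flavonoid that differs between them. All 22203 transcript clusters with a gene symbol, of 22206 annotated ones, were described. The cells were primary skin fibroblasts that grew out of tail skin explants of mice with mucopolysaccharidosis type I (MPS I), killed at 6 to 8 weeks of age, in which the lysosomal enzyme alpha-L-iduronidase (gene Idua) is deficient. They were kept in DMEM with serum and exposed for 24 h. The labels name no strain, sex, passage or number of mice and call the arrays of a group biological replicates. Whether these came from separate mice or cultures is not stated, so the p-values measure the spread between these arrays. Other groups of 2 arrays are used here for comparison: 60 µM K, 120 µM G, 0.05% DMSO and 0.1% DMSO.

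The solvent differed as well. The methods of the study give 0.05% DMSO for single flavonoids and 0.1% for mixtures, whereas the sample labels give 0.05% for every treatment. K added to G therefore cannot be told apart from the additional 0.05% DMSO in the 4 arrays alone, and the difference between the 0.1% and 0.05% DMSO controls is given beside the results. In the limma fit that solvent difference passed the test for 1 transcript cluster, Gm2888, at a log2 difference of 1.25 (SE 0.16, adjusted p = 0.0433), and 2050 had an unadjusted p under 0.05. Gm2888 itself did not pass the test when K was added to G (log2 fold change -0.03, adjusted p = 0.947). Across all 22206 transcript clusters the solvent difference and the change with added K, which share no array, had a correlation of r = -0.15. The middle 90% of the solvent differences ran from -0.40 to 0.43 on the log2 scale.

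G belongs to the isoflavones and K to the flavonols, 2 classes of plant flavonoids that differ in where the phenyl ring is attached to the chromenone and in a hydroxyl group that K carries beside it. Glutathione, made from cysteine, glutamate and glycine, lets cells reduce peroxides and couple electrophiles to a water-soluble carrier. The transcription factor NRF2 (gene Nfe2l2) turns on many of the genes that make, recycle and use it, through the antioxidant response element in their control regions, and it is held back by KEAP1 until reactive compounds modify that protein. The factor p53 raises genes that halt the cell cycle or start apoptosis after damage, and ATF4 raises amino acid synthesis and transport genes when amino acids are short or the endoplasmic reticulum is under stress. Tail skin fibroblasts make collagens, proteoglycans and the enzymes that remodel them, and in MPS I the undegraded glycosaminoglycans (GAGs) pile up in their lysosomes.

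Signals are log2 values, and the medians of the 16 arrays lay between 6.54 and 6.63. Arrays of 1 group correlated at 0.9948 or more. The transcript clusters of 10 of 11 fibroblast markers lay above the median of the 5222 negative controls in at least 1 of both groups, the exception being Lum. All 5 endothelial, all 7 keratinocyte and all 5 Schwann cell markers were dim, which here means no higher than that median on the 2 arrays of a group. So were 5 of 6 leukocyte, 3 of 4 melanocyte and 4 of 5 skeletal muscle cell markers, and none of these lists had a member that passed the test. Of the fibroblast markers 3 fell when K was added: S100a4 (log2 fold change -1.87, SE 0.21, adjusted p = 0.000134), Thy1 (-0.92, adjusted p = 0.0022) and Vim (-0.69, adjusted p = 0.0103). The log2 of the summed signal of the 11 was 19.07 to 19.14 with G and 18.77 to 18.81 with the mixture, and its part in the results below was not tested. In such bulk RNA, fewer cells of a kind and less RNA per cell cannot be told apart. Idua measured 7.64 and 7.72 with G and 7.66 and 7.79 with the mixture (log2 fold change 0.04, adjusted p = 0.892), and the reference genes B2m and Gapdh had values of -0.22 and 0.01 and did not pass either.

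When K was added to G, 853 transcript clusters rose (3.84% of those tested) and 696 fell (3.13%), at an adjusted p under 0.05 in limma with the Benjamini-Hochberg method. The split moved with the scaling, to 1029 and 572 with arrays centred on their median and 710 and 716 after quantile normalization. Of the 1549, 241 rose and 185 fell by over 2-fold and 29 rose and 22 fell by over 4-fold, and the median over all transcript clusters was -0.02. The smallest rise that passed was to 1.38 times and the smallest fall to 0.741 times the signal with G. In 194 of them both groups were dim. The 2 groups did not overlap in any of the 1549, nor in 53.9% of all transcript clusters. Relative to each treatment's own DMSO control, 417 rose (1.88%) and 393 fell (1.77%), which included 334 of the 853 (39.2%) and 277 of the 696 (39.8%), and 852 and 693 kept their sign. Relative to own solvents the split was 526 and 318 with centred arrays and 362 and 350 after quantile normalization. The count of 1549 was 1002 without the first and 626 without the second array of G, and 521 and 534 without the first and second array of the mixture.

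The largest rises were in genes of glutathione conjugation and in proliferins. Gsta3, an alpha-class glutathione transferase that couples electrophiles to glutathione, measured 7.28 and 7.11 with G and 10.96 and 10.94 with the mixture. That is a 13.5-fold rise (log2 fold change 3.76, SE 0.17, adjusted p = 9.05e-08), with a solvent difference of -0.12. Gsta4, the transferase known for its activity on lipid peroxidation aldehydes, measured 11.74 and 11.61 with G and 14.93 and 14.99 with the mixture and rose 9.74-fold (log2 fold change 3.28, SE 0.22, adjusted p = 1.33e-06). The groups stood far apart for both genes and the arrays of a group close together. Gsta2 was dim with G, at 5.23 and 5.26, and measured 9.05 and 9.08 with the mixture, at least 5.05-fold higher (log2 fold change 3.82, SE 0.32, adjusted p = 9.16e-06). It is nearly identical in sequence to Gsta1, so how much of its signal belongs to each is uncertain.

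Proliferins are prolactin-like secreted proteins first known from growing mouse fibroblasts and placenta. Prl2c2 showed the largest difference of all, with 6.67 and 7.06 with G and 11.07 and 10.82 with the mixture, 16.9-fold higher (log2 fold change 4.08, SE 0.47, adjusted p = 0.000168). Prl2c3 measured 6.91 and 7.64 with G and 10.63 and 10.34 with the mixture (9.24-fold, adjusted p = 0.000342). Prl2c5 measured 6.06 and 5.80 with G and 9.33 and 9.82 with the mixture, at least 7.2-fold higher (adjusted p = 0.00102). These genes are close copies of each other whose signals may be shared. They also had the highest solvent differences among the leading genes, 1.21, 0.85 and 0.97, none of which passed in limma (adjusted p = 0.462, 0.555 and 0.615). The control arrays of a group lay far apart, for Prl2c2 at 8.28 and 9.53 in 0.05% DMSO and 9.14 and 11.08 in 0.1% DMSO. After subtraction of the solvent difference Prl2c5 did not pass the test (2.68, adjusted p = 0.0672), while Prl2c2 and Prl2c3 did (adjusted p = 0.0329 and 0.0392).

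Among the other leading rises, Slc7a11, the antiporter that brings cystine into the cell, measured 7.75 and 7.56 with G and 10.35 and 10.40 with the mixture (6.61-fold, log2 fold change 2.72, SE 0.17, adjusted p = 8.5e-07). Cdo1, the dioxygenase that breaks cysteine down, measured 11.98 and 11.77 with G and 14.47 and 14.49 with the mixture (6.09-fold, log2 fold change 2.61, SE 0.25, adjusted p = 3.7e-05). The importer of the cysteine precursor and the enzyme that degrades cysteine were thus both higher with the mixture, in all arrays. Srxn1, sulfiredoxin, which repairs over-oxidised peroxiredoxins, measured 12.48 and 12.05 with G and 14.82 and 14.87 with the mixture (5.96-fold, log2 fold change 2.58, SE 0.16, adjusted p = 9.55e-07). Bace2, an aspartyl protease of the membrane, went from dim signals of 6.08 and 6.16 to 8.96 and 9.32, at least 5.32-fold higher (adjusted p = 1.53e-06). Lrp8, a reelin and apolipoprotein E receptor, likewise went from 5.78 and 6.18 to 8.53 and 8.69, at least 3.69-fold higher (adjusted p = 1.41e-06). For neither gene did a mixture array come near the G arrays. Lgi2, a secreted leucine-rich repeat protein, rose 6.52-fold (7.94 and 7.96 against 10.75 and 10.56).

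The largest falls were in secreted and matrix proteins. Timp1, an inhibitor of matrix metalloproteinases, measured 12.54 and 12.55 with G and 9.89 and 9.91 with the mixture, 6.24-fold lower (log2 fold change -2.64, SE 0.28, adjusted p = 7.85e-05). Itgbl1, a secreted protein with integrin-like repeats, measured 13.22 and 13.58 with G and 10.38 and 10.25 with the mixture (8.47-fold lower, log2 fold change -3.08, SE 0.19, adjusted p = 8.5e-07). Nov, a matricellular protein of the CCN family, measured 14.61 and 14.82 with G and 11.92 and 11.94 with the mixture (6.87-fold lower, log2 fold change -2.78, SE 0.17, adjusted p = 8.5e-07). In each of these the lower G array lay well above both mixture arrays. Mfap5, a component of elastic microfibrils, fell 5.23-fold (13.21 and 12.90 against 10.66 and 10.67), and Fibin, a secreted protein, 5.45-fold (9.57 and 9.23 against 6.83 and 7.07). Fam180a fell from 10.49 and 10.31 to dim signals of 6.59 and 6.65, at least 12.4-fold lower (log2 fold change -3.78, SE 0.24, adjusted p = 1.01e-06). Its solvent difference of -0.58 had the same direction.

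Lgals3, which encodes the sugar-binding protein galectin 3, measured 13.24 and 13.17 with G and 10.64 and 10.69 with the mixture (5.84-fold lower, log2 fold change -2.55, SE 0.16, adjusted p = 8.5e-07). Txnip, the protein that binds and inhibits thioredoxin and lowers glucose uptake, measured 14.01 and 14.15 with G and 11.51 and 11.55 with the mixture (5.84-fold lower, log2 fold change -2.55, SE 0.13, adjusted p = 2.4e-07). Dkk2, a secreted regulator of Wnt receptors, measured 12.23 and 12.11 with G and 9.38 and 9.37 with the mixture (6.95-fold lower, log2 fold change -2.80, SE 0.25, adjusted p = 1.76e-05). None of the 3 genes was dim in either group. The transcription factors Klf2 and Pknox2 and the co-stimulatory molecule Cd80 reached dim levels with the mixture, at least 3.45-fold, at least 2.83-fold and at least 2.43-fold lower. All 24 leading genes, 12 in each direction, passed the test when any 1 of the 4 arrays was left out, with adjusted p up to 0.0178. Their solvent differences ran from -0.30 to 1.21 among the rises and from -0.58 to 0.24 among the falls.

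**Figure D1:**
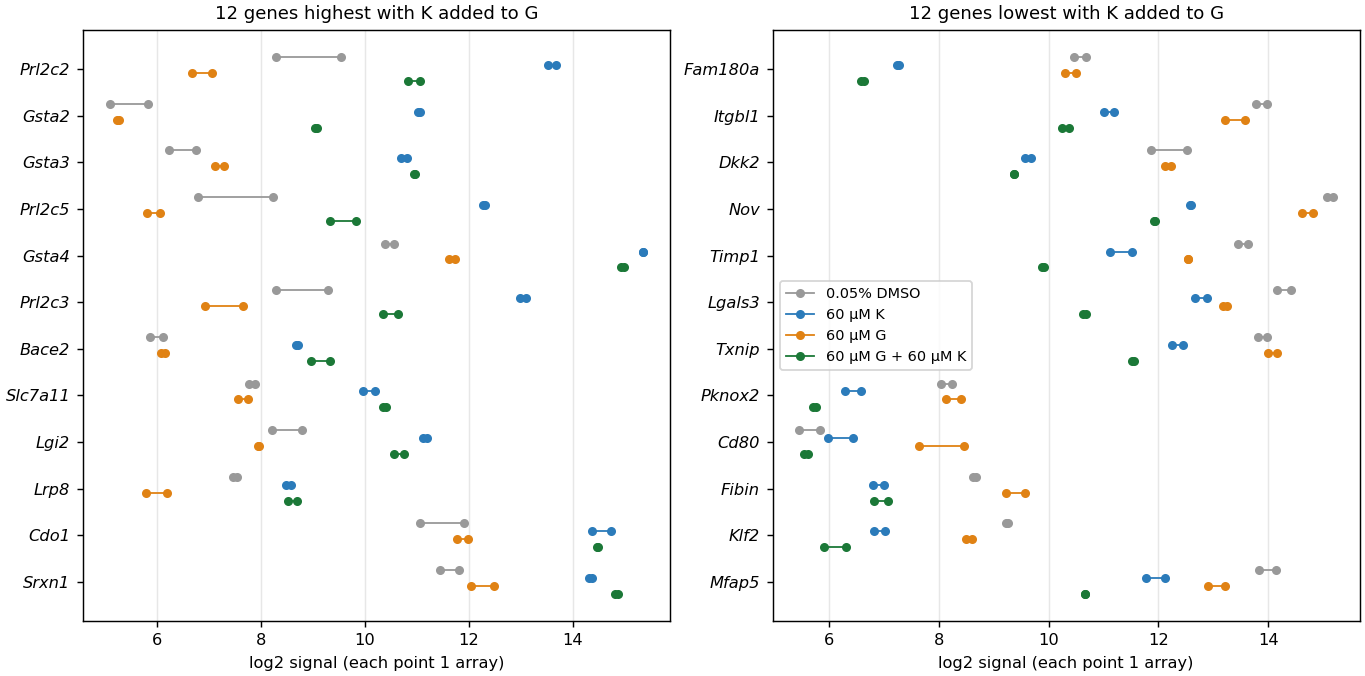
Log2 signal of the 12 genes with the largest rises and the 12 with the largest falls when 60 µM K was added to 60 µM G, with 1 point per array, a line between the 2 arrays of a group and 4 groups in colour. Gsta3 and Txnip, for example, differ between G and the mixture by 3.76 and -2.55 on the log2 scale, and for the 3 proliferins the arrays of K alone lie above those of the mixture.

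Over all transcript clusters 3.84% rose and 3.13% fell, the shares to set beside each list count for K added to G. Of the glutathione transferases 5 of 21 measured rose and 1 fell, with a median log2 fold change of 0.29 against -0.02 over all transcript clusters. Besides the alpha-class genes these were Gstk1 (0.85, adjusted p = 0.0475) and the microsomal Mgst1 (0.50, adjusted p = 0.0385), and Gstm2 fell by 0.58 (adjusted p = 0.0244). Of 28 NRF2 targets in redox defence 14 rose and 1 fell, with a median of 0.64, and 11 rose relative to the treatments' own solvents (1.88% over all). Leaving out 1 of the 4 arrays gave 11 to 13 rises and no fall in this list. For the transferases it gave 3 or 4 rises and no fall, 3 being fewer than the 5 by over 1.5 times.

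Both subunits of the enzyme that takes the limiting step of glutathione synthesis rose. Gclm, the regulatory subunit of glutamate-cysteine ligase, measured 14.28 and 14.23 with G and 16.14 and 16.18 with the mixture (log2 fold change 1.91, adjusted p = 1.92e-06). Gclc, its catalytic subunit, measured 12.45 and 12.34 with G and 13.96 and 14.04 with the mixture (1.61, adjusted p = 1.68e-05). Its solvent difference was 0.43, against 0.03 for Gclm. Gss, glutathione synthetase, which takes the next step, had a value of -0.08 (adjusted p = 0.881) and did not pass. Gsr, which returns oxidised glutathione to its reduced form, measured 12.53 and 12.57 with G and 13.79 and 13.84 with the mixture (1.27, adjusted p = 0.000152). Txnrd1, thioredoxin reductase, measured 14.74 and 14.81 with G and 16.38 and 16.44 with the mixture (1.64, adjusted p = 1.83e-05). Both reductases were higher in each mixture array than in each G array.

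Of the enzymes that remove peroxides, Prdx6 rose by 1.09 and catalase (Cat) by 0.70 on the log2 scale (adjusted p = 0.00124 and 0.00669). Abcc1 and Abcc4, pumps that export glutathione conjugates, rose by 1.24 and 1.57 (adjusted p = 0.000519 and 0.000592). In haem breakdown, Blvrb, biliverdin reductase B, measured 8.54 and 7.98 with G and 10.22 and 10.53 with the mixture (2.12, adjusted p = 2.2e-05), and Hmox1, haem oxygenase, 15.86 and 16.04 with G and 16.95 and 16.92 with the mixture (0.98, adjusted p = 0.00044). The quinone reductase Nqo1, often used as a marker of NRF2, had a smaller fold change, at 10.55 and 10.48 with G and 11.22 and 11.14 with the mixture (0.66, adjusted p = 0.0326), and it did not pass on leaving out any 1 of the 4 arrays (adjusted p 0.0897 to 0.168). The ferritin genes Fth1 and Ftl1 had values of 0.06 and 0.06 and did not pass.

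The gene for NRF2 itself went the other way. Nfe2l2 measured 11.38 and 11.44 with G and 10.66 and 10.70 with the mixture (log2 fold change -0.73, SE 0.17, adjusted p = 0.0182), but with any 1 of the 4 arrays left out it did not pass (adjusted p 0.0605 to 0.106). Keap1 stood at 0.60 (adjusted p = 0.0509). Of 8 genes in a list for the supply of NADPH, the reductant that glutathione and thioredoxin reductases use, 4 rose. Not all of the 8 encode enzymes that make NADPH themselves. Pgd, of the oxidative pentose phosphate pathway, measured 12.65 and 12.95 with G and 14.54 and 14.42 with the mixture (1.68, adjusted p = 1.44e-05). G6pdx, of the same oxidative branch, rose by 1.06 and Taldo1, of the non-oxidative branch, by 1.13 (adjusted p = 0.00123 and 0.000904). The malic enzyme Me1 rose by 0.70 (adjusted p = 0.00537).

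The promoters of 4 of these genes are shown because they hold the core of the antioxidant response element, TGACNNNGC on either strand, within 250 bases before to 50 bases after the start of the gene. The sequences are from RefSeq on build GRCm38.p6, read 5′ to 3′ on the strand of the gene, and capitals mark the element.
Gsta3, chr1:21240335-21240634, plus strand: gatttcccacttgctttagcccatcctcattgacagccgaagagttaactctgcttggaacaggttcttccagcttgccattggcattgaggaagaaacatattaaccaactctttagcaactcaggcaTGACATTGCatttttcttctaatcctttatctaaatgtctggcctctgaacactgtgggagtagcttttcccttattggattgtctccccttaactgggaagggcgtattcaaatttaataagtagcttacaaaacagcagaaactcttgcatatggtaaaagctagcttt
Srxn1, chr2:152105274-152105573, plus strand: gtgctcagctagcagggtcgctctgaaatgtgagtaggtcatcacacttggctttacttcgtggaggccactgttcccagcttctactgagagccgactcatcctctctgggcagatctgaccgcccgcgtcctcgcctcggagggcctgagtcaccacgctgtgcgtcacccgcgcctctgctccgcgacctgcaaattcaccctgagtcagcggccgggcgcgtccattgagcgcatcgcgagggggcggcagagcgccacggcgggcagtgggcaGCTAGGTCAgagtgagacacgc
Gclm, chr3:122245307-122245606, plus strand: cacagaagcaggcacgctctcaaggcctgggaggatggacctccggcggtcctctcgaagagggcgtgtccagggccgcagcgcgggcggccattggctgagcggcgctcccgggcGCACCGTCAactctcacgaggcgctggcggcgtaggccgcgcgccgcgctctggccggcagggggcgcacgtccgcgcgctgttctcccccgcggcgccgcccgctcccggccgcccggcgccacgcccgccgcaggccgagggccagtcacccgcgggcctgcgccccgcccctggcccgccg
Abcc4, chr14:118706170-118706469, minus strand: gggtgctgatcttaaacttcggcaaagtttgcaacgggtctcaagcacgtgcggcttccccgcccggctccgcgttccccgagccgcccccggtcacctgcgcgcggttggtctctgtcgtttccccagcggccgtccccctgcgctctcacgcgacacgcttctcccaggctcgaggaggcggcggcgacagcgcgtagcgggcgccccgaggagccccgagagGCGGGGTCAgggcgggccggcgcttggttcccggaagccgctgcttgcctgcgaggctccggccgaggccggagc
The element begins 121 bases before the start in Gsta3, 134 before in Gclm and 25 before in Abcc4, and 28 bases after it in Srxn1. It reads on the strand of the gene in Gsta3 and on the other strand in Srxn1, Gclm and Abcc4. Of 23 genes of the glutathione transferase, NRF2 and NADPH lists that rose, 17 had a promoter in the table, and 7 of them (41.2%) held the element. It was present in 20.4% of the 49 promoters of all measured genes of these lists, in 17.7% of 654 promoters of genes that rose, in 12.3% of 488 of genes that fell and in 13.4% of all 16020 promoters of measured genes. The core of the xenobiotic response element, GCGTG on either strand, was present in 54.0%, 40.0% and 39.6% of the last 3 sets. The E-box, CACGTG, was present in 8.72%, 9.02% and 8.06% of them. The ATF4 element, TGATGNAA on either strand, was present in 2.75%, 3.89% and 3.47%. The core of the antioxidant response element was also present in 10 of 24 promoters (41.7%) of the ATF4 and CHOP list, which is described below. Among the genes of that list that rose, 4 of 8 promoters held it. A share as high as 41.2% was thus not particular to the redox genes that rose. A match in these letters is a description of the window and does not show that a factor binds there.

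Matrix proteases and their inhibitors moved in both directions. Of 28 measured, 6 rose and 4 fell, with a median of -0.13, and leaving out 1 of the 4 arrays gave 3 to 6 rises and 4 falls. The rises included 2 membrane-bound ADAM family genes, Adam23, which lacks protease activity and binds integrins, and Adam12, which sheds growth factors. Adam23 measured 8.29 and 8.05 with G and 10.62 and 10.42 with the mixture (2.35, adjusted p = 5.07e-06), and Adam12 9.22 and 9.42 with G and 11.51 and 11.54 with the mixture (2.20, adjusted p = 3.3e-06). Mmp11, stromelysin 3, measured 12.60 and 11.98 with G and 14.40 and 14.35 with the mixture (2.08, adjusted p = 0.000465). Adam15, Adam17 and the inhibitor Timp4 also rose, by 0.58, 0.62 and 1.10. Adamts5, an aggrecan-cleaving protease, fell by 1.82 (adjusted p = 8.17e-05), Mmp19 by 0.95 and the inhibitor Timp3 by 1.19 (adjusted p = 0.000994 and 0.000221). Of the 4 TIMP inhibitors of metalloproteinases, Timp1 and Timp3 thus fell and Timp4 rose.

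Secreted class 3 semaphorins, which guide axons and vessels and signal through plexins and neuropilins, had members that fell, and plexins members that rose. The 6 members of this family of 28 that fell were all Sema3 genes and the 3 that rose were all plexins, and leaving out 1 array gave 4 falls and 1 to 3 rises. Sema3a, the founding member, measured 10.19 and 10.23 with G and 7.82 and 7.95 with the mixture (log2 fold change -2.32, SE 0.26, adjusted p = 0.000126). Sema3f measured 11.85 and 11.86 with G and 9.87 and 10.24 with the mixture (-1.81, adjusted p = 7.34e-05) and Sema3b 12.25 and 12.44 with G and 10.67 and 10.51 with the mixture (-1.76, adjusted p = 3.7e-05). Sema3c and Sema3e fell by 0.82 and 0.81, and Sema3d had a value of -1.30 (adjusted p = 0.00126). The receptor Plxnd1 measured 8.47 and 8.30 with G and 9.71 and 9.63 with the mixture (1.28, adjusted p = 0.000119), and Plxnc1 and Plxna1 rose by 0.82 and 0.76 (adjusted p = 0.0236 and 0.00598).

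Of 20 contractile genes of myofibroblasts 4 fell and none rose, and 3 of the falls held without any 1 of the 4 arrays. Tagln, an actin-binding protein of smooth muscle, measured 14.47 and 14.02 with G and 12.81 and 13.16 with the mixture (log2 fold change -1.26, SE 0.21, adjusted p = 0.00238). Tpm2, a tropomyosin, measured 12.85 and 12.79 with G and 11.55 and 11.48 with the mixture (-1.30, adjusted p = 0.00287), and Actn1, which crosslinks actin, 14.99 and 14.91 with G and 13.94 and 14.08 with the mixture (-0.94, adjusted p = 0.000637). Mylk, the kinase of myosin light chains, fell by 0.97 (adjusted p = 0.0151), a call lost without any 1 array. Of 9 galectins Lgals3, Lgals9 (-1.35, adjusted p = 0.00186) and Lgals2 (-0.71, adjusted p = 0.0206, dim in both groups) fell. In the Wnt pathway 3 of 37 genes rose, Wnt4, Nkd2 and Fzd4, and 5 fell, among them Dkk2, the R-spondin Rspo3 (-1.54, adjusted p = 0.00628) and its receptor Lgr5 (-1.32, adjusted p = 0.00251). Leaving out 1 array gave 0 or 1 rises and 2 to 5 falls there.

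Igfbp5, a binding protein of insulin-like growth factors, measured 9.86 and 10.09 with G and 12.66 and 12.42 with the mixture (5.92-fold higher, log2 fold change 2.57, SE 0.27, adjusted p = 7.36e-05). Pappa, a protease of insulin-like growth factor binding proteins, rose as well (1.82, adjusted p = 0.00115). In the list of this growth factor axis 2 genes rose and 1 fell, and 2 and 0 relative to own solvents. The fall was in Igfbp6 (-0.78, adjusted p = 0.0445), which was dim with the mixture. Cebpa, a transcription factor of fat cell differentiation, measured 7.15 and 7.01 with G and 9.63 and 9.49 with the mixture (5.58-fold higher, log2 fold change 2.48, SE 0.24, adjusted p = 3.14e-05), and lipoprotein lipase (Lpl) rose by 1.13, while the fat cell genes Fabp4 and Plin4 fell by 1.20 and 1.08 (adjusted p = 0.0239 and 0.00579, both lost without some 1 array, and Plin4 dim with the mixture). Of 24 genes of TGF-beta signalling 4 rose and 1 fell, but 2 rose and 0 or 1 fell when any 1 of the 4 arrays was left out, and 2 and 0 relative to own solvents. Ltbp1, a latent TGF-beta binding protein, measured 9.22 and 9.08 with G and 10.38 and 10.49 with the mixture (1.29, adjusted p = 0.000179), and its relative Ltbp3 10.86 and 10.61 with G and 10.01 and 9.97 with the mixture (-0.75, adjusted p = 0.0112).

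Of 30 measured genes of the ATF4 and CHOP list 9 rose, 3 fell and 18 did not pass (8 and 2 relative to own solvents, and 6 or 7 and 2 without 1 of the 4 arrays). The rises included 4 genes of serine and one-carbon metabolism. Phgdh, the first enzyme of serine synthesis, measured 11.31 and 10.71 with G and 12.13 and 12.19 with the mixture (1.15, adjusted p = 0.00113), and Psat1, Shmt2 and Mthfd2 rose by 0.79, 0.81 and 1.13. Asparagine synthetase (Asns) measured 14.92 and 14.80 with G and 15.98 and 16.01 with the mixture (1.13, adjusted p = 0.000232). The arginine and lysine carrier Slc7a1 measured 8.99 and 9.10 with G and 10.30 and 10.30 with the mixture (log2 fold change 1.25, SE 0.13, adjusted p = 7.36e-05), and Slc3a2, the shared heavy chain of Slc7a11 and other carriers, rose by 0.60. The 3 falls were in transcriptional regulators of the stress response. Ddit3, which encodes CHOP, measured 12.82 and 12.87 with G and 11.73 and 11.51 with the mixture (log2 fold change -1.23, SE 0.13, adjusted p = 0.000105), Nupr1 12.16 and 12.07 with G and 11.11 and 10.97 with the mixture (-1.08, adjusted p = 0.00103) and Atf3 8.55 and 8.84 with G and 7.75 and 8.13 with the mixture (-0.75, adjusted p = 0.0404). With any 1 of the 4 arrays left out Atf3 did not pass, while Ddit3 and Nupr1 did.

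Among cell cycle genes, those of DNA replication held rises and the histones falls. All 43 DNA replication genes had positive log2 fold changes (median 0.39, against -0.02 over all transcript clusters) and 8 passed (3.84% rose over all). Genes measured on the same arrays are not independent replicates. The largest of the 8 was the origin licensing factor Cdc6, at 8.57 and 8.97 with G and 9.84 and 9.82 with the mixture (1.06, adjusted p = 0.0368). The one with the lowest adjusted p was thymidylate synthase, Tyms, at 11.82 and 11.76 with G and 12.73 and 12.62 with the mixture (0.88, adjusted p = 0.00223). Leaving out 1 array gave 2 to 5, and relative to own solvents 1 passed. Of 40 genes of G2/M and mitosis 1, the securin Pttg1, rose (0.55, adjusted p = 0.0332). Of 58 replication-dependent histone genes, many of them near-identical copies, 8 fell and none rose, 2 of the 8 with the same values on every array (Hist1h4m and Hist1h4n). Hist1h1c, a linker histone, measured 12.60 and 12.56 with G and 10.67 and 10.79 with the mixture (log2 fold change -1.85, SE 0.14, adjusted p = 3.53e-06) and was the 1 histone gene to pass relative to own solvents, and leaving out 1 array gave 2 to 4 falls.

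GAG metabolism is the process disturbed in MPS I. Of 57 genes of GAG synthesis 9 rose and 2 fell (median 0.04), and leaving out 1 array gave 4 to 6 rises and 1 to 3 falls. Hs3st1, a heparan sulfate sulfotransferase, went from dim signals of 5.76 and 6.28 to 7.50 and 8.04, at least 2.06-fold higher (adjusted p = 0.000178). Csgalnact1, which starts chondroitin chains, measured 9.18 and 9.62 with G and 10.60 and 10.68 with the mixture (1.24, adjusted p = 0.00084), and Chst2, a sulfotransferase, 7.86 and 7.86 with G and 9.06 and 9.05 with the mixture (1.20, adjusted p = 0.00238). Papss2, which makes the sulfate donor, fell by 0.94 and B3gnt2 by 0.80 (adjusted p = 0.00541 and 0.00769). Among the genes of GAG degradation, Sulf1, which removes sulfate from heparan sulfate outside the cell, fell (11.38 and 11.26 with G and 9.71 and 10.25 with the mixture, log2 fold change -1.34, SE 0.22, adjusted p = 0.00267).

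Of 36 soluble lysosomal enzymes 2 fell (Pla2g15 and Asah1), and of 36 genes of the lysosomal membrane 1 rose (Sort1) and 2 fell (Atp6ap2 and Cd68). Over all transcript clusters 3.84% rose and 3.13% fell, and 1 or 2 genes of such lists are not read as a result about them. Leaving out 1 of the 4 arrays gave 0 or 1 falls among the soluble enzymes and 0 or 1 rises and no fall in the membrane list, and relative to own solvents none of the soluble enzymes passed. Of 38 autophagy genes 2 rose, likewise not read as a result about that list. They were transcription factors of the MiT family, about which as a whole nothing is concluded here. Mitf measured 10.31 and 10.63 with G and 11.61 and 11.65 with the mixture (1.15, adjusted p = 0.000749), and Tfec 7.17 and 7.38 with G and 8.72 and 8.89 with the mixture (1.53, adjusted p = 0.000126). Both calls were kept without any 1 array. Among 19 clock genes 4 rose, led by the repressor Bhlhe41 (9.89 and 9.93 with G and 11.27 and 11.45 with the mixture, 1.45, adjusted p = 1.89e-05), and leaving out 1 array gave 1 to 3. Of the 4, Hlf was dim in both groups. None of 36 genes of oxidative phosphorylation passed. In fatty acid synthesis 4 of 18 rose, including Fasn (1.06, adjusted p = 0.0117), but 0 or 1 without 1 of the 4 arrays and none relative to own solvents.

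**Figure D2:**
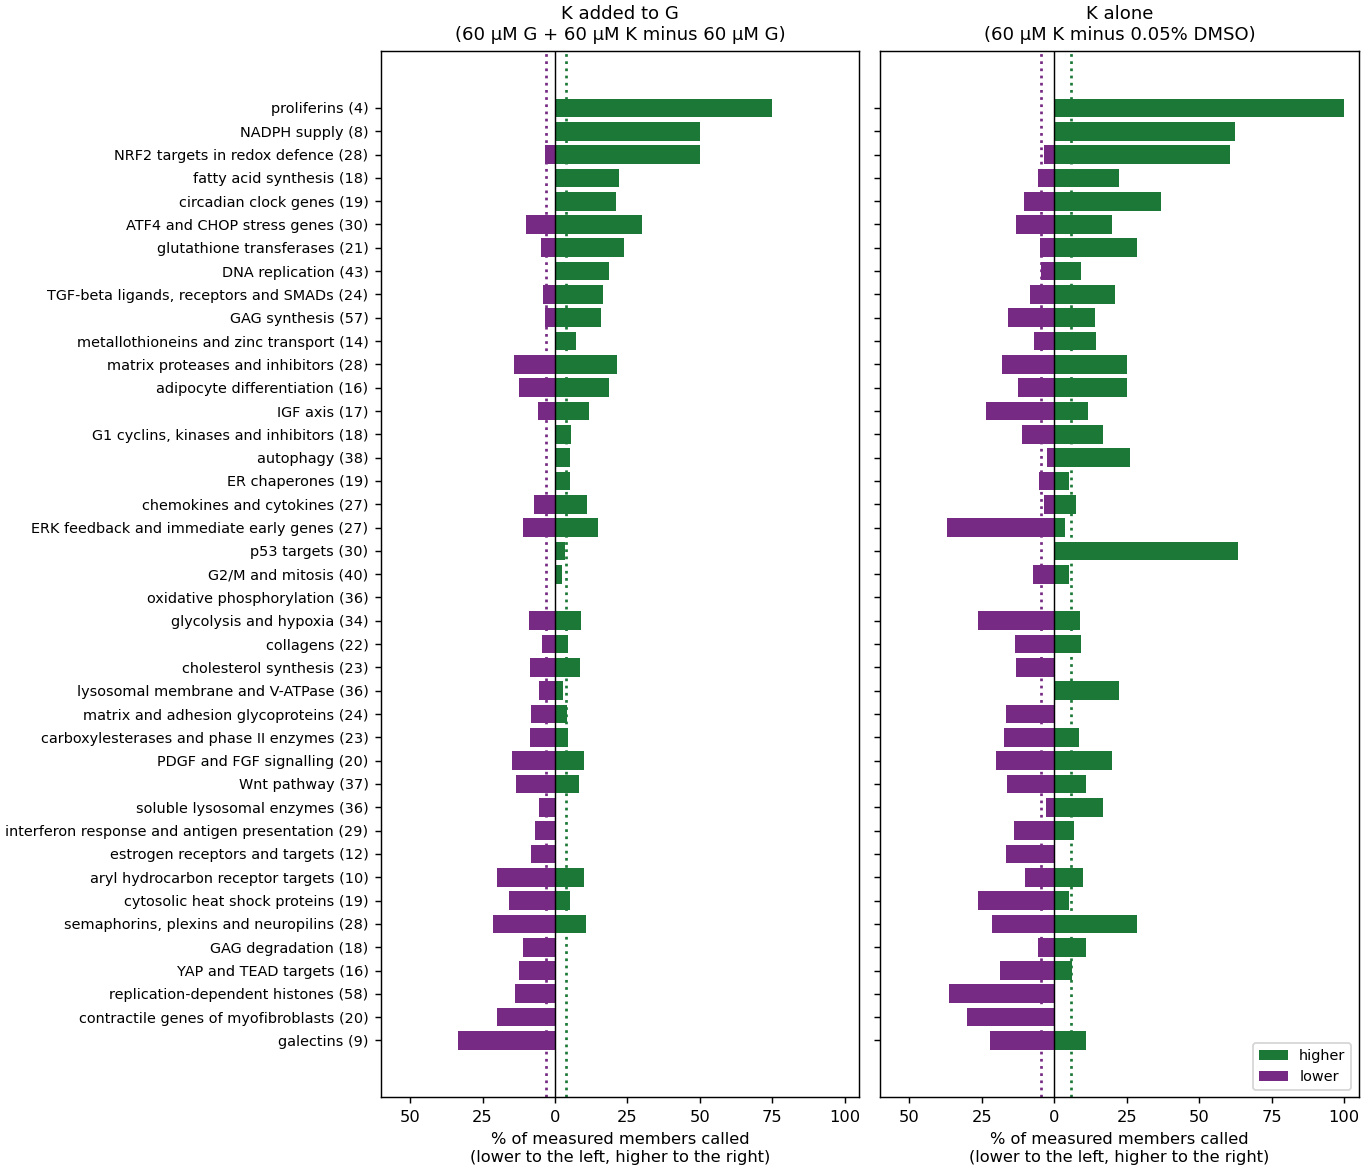
Percent of the measured members of each gene list that rose (to the right) or fell (to the left) when K was added to G, and for K alone against 0.05% DMSO, with the number of measured members in brackets. The NRF2 list shows 14 of 28 higher in the first comparison, and the p53 list 1 of 30 in the first and 19 of 30 in the second.

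The same 60 µM of K was also given without G and without a solvent difference (60 µM K and 0.05% DMSO). The means of these arrays do not enter the mixture minus G. K alone raised 1270 transcript clusters (5.72%) and lowered 977 (4.4%), 2247 in all and 1150 to 1354 when any 1 of these 4 arrays was left out. The changes with and without G correlated across the 22206 transcript clusters (Pearson r = 0.57, Spearman rho = 0.44), and across those brighter than the median with r = 0.68. These are correlations across genes, which are not independent replicates. Of the 853 that rose when K was added, 443 also rose with K alone, which is 51.9% of the 853 and 34.9% of the 1270, and 2 fell. Of the 696 that fell, 349 also fell with K alone, 50.1% of the 696 and 35.7% of the 977, and 3 rose.

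The clusters that K alone raised had a median log2 fold change of 0.80 there and of 0.42 when K was added to G, and those that K alone lowered had -0.82 and -0.46. In the reverse direction, clusters that rose on addition to G had a median of 0.82 there and of 0.62 with K alone, and those that fell -0.83 and -0.57. Each set was chosen by the first of its values, so the smaller second value in either direction is a description only. Gsta3 rose by 3.76 with G present and 4.27 without it, Srxn1 by 2.58 and 2.72, and Slc7a11 by 2.72 and 2.25. For these 3 genes the difference between both effects did not pass the test (adjusted p = 0.469, 0.866 and 0.497), with 95% intervals of the difference from -1.04 to 0.01, -0.65 to 0.35 and -0.04 to 0.98. Dkk2, Timp1 and Nov fell in both settings, by 2.80 and 2.57, 2.64 and 2.23, and 2.78 and 2.54.

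**Figure D3:**
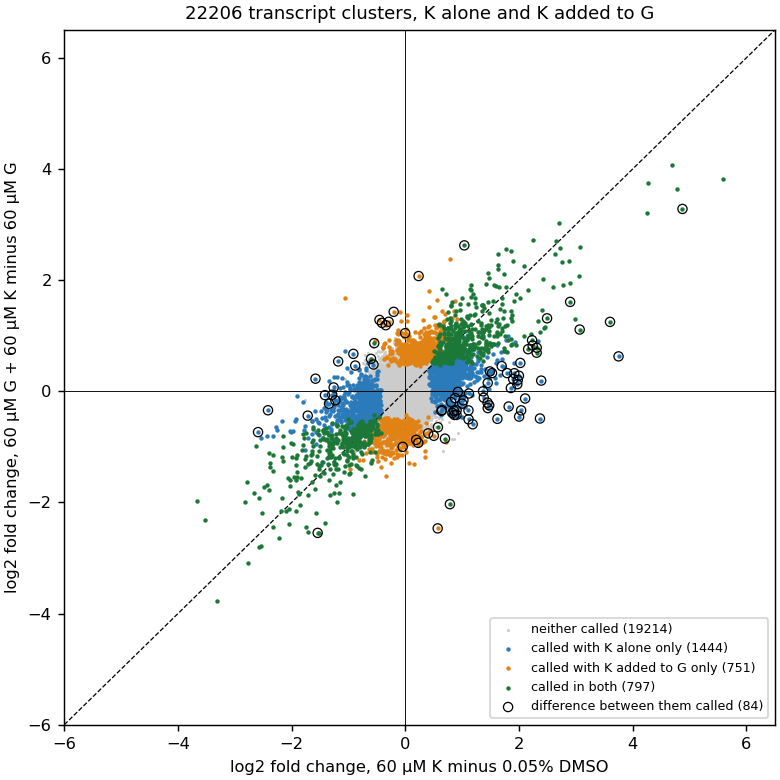
Log2 fold change of each of 22206 transcript clusters when 60 µM K was added to 60 µM G (vertical axis) and with 60 µM K alone against 0.05% DMSO (horizontal axis), coloured by which of the 2 comparisons it passed and ringed where the difference between them passed. The cloud lies along the rising diagonal (r = 0.57), and 54 of the 84 ringed points had a negative difference and rose with K alone. Of these 54, 41 did not pass on addition to G, 10 rose and 3 fell.

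The difference between the effects of K with and without G was tested directly. It was positive for 23 transcript clusters (0.104%) and negative for 61 (0.275%). Of the 61, 54 rose with K alone, and 41 of these did not pass when K was added to G. Of the 23, 15 fell with K alone and 7 rose on addition to G without passing with K alone. Here the solvent difference sits in 1 arm only. With it subtracted all 84 kept their sign and 9 passed, and on leaving out each of the 8 arrays in turn 11 of the 84 passed every time and 38 never. The count was 13 without the first array of the mixture and at most 29 without any other array.

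Targets of p53 made up a part of the negative differences. Of 30 measured, 19 rose with K alone (5.72% over all transcript clusters, median 0.80) and none fell, whereas 1 rose when K was added to G (median -0.04), and for 9 the difference was negative and passed (0.275% over all). Leaving out 1 array gave 14 or 15 rises with K alone. The 9 became 5 without the second array of G, 3 without the first array of K or of 0.05% DMSO, 2 without the second of either, and 1 without the first array of G or any 1 mixture array. Cdkn1a, which encodes the cell cycle inhibitor p21, measured 15.26 and 15.38 in 0.05% DMSO and 16.06 and 16.24 with K alone, and 16.41 and 16.30 with G and 15.94 and 16.00 with the mixture. The difference between both effects was -1.22 (SE 0.19, adjusted p = 0.014). The 0.05% DMSO arrays were the lowest of these 8.

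Pmaip1, the apoptosis inducer NOXA, measured 7.65 and 8.07 in 0.05% DMSO and 9.80 and 9.73 with K, and 10.26 and 10.58 with G and 10.69 and 10.59 with the mixture (difference -1.68, adjusted p = 0.0342). Ddit4, an inhibitor of mTORC1, measured 9.20 and 8.69 in 0.05% DMSO and 10.62 and 10.98 with K, and 10.79 and 10.56 with G and 10.80 and 10.67 with the mixture (-1.80, adjusted p = 0.014). Eda2r, a receptor of the TNF receptor family, measured 10.85 and 10.51 in 0.05% DMSO and 12.61 and 12.39 with K, and 13.00 and 13.01 with G and 12.76 and 12.71 with the mixture (-2.09, adjusted p = 0.000947). In each gene the DMSO arrays were the lowest. The median signal of the 30 genes was 10.42 in 0.05% DMSO, 11.61 with K, 11.64 with G and 11.70 with the mixture.

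For Trp53inp1, Phlda3, Zmat3, Polk and Ccng1 the differences were -2.24, -1.65, -1.59, -1.16 and -1.0. With the solvent difference subtracted, Eda2r alone among the 9 passed (adjusted p = 0.0391), as it also did without each of the 8 arrays in turn, and the others had adjusted p from 0.14 to 0.24. Gadd45a, a growth arrest gene, was the 1 member to rise when K was added, at 11.63 and 11.93 with G and 12.86 and 12.83 with the mixture (1.06, adjusted p = 0.00582, up to 0.0520 without 1 array). It rose by 2.37 with K alone.

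**Figure D4:**
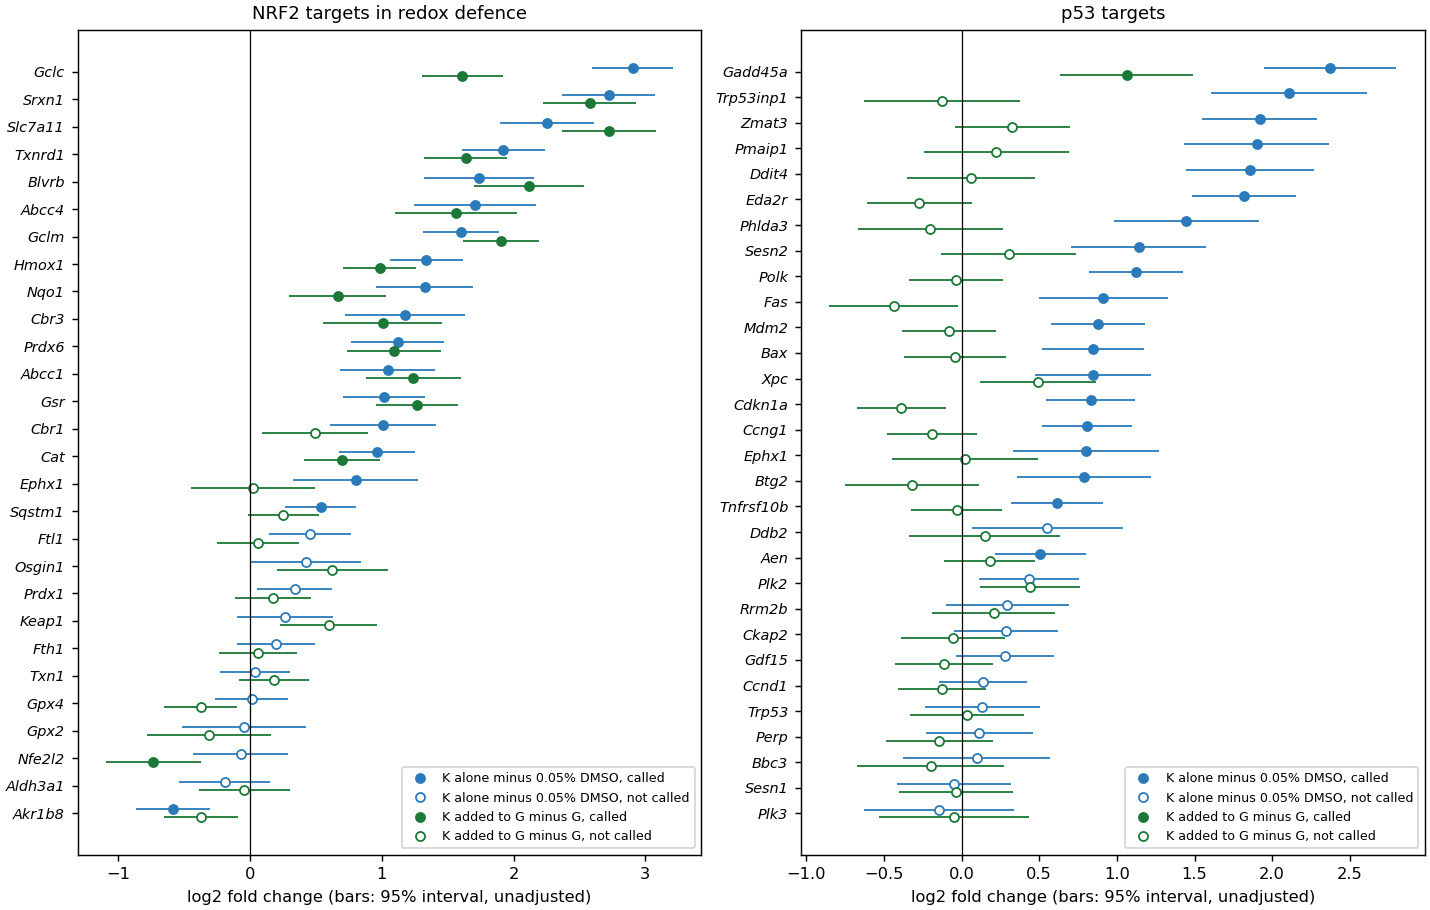
Log2 fold changes of the NRF2 redox genes and of the p53 targets when K was added to G and with K alone, with unadjusted 95% intervals, filled points where the test was passed. Most redox genes lie to the right of 0 in both comparisons (14 and 17 of 28 passed as rises), while the p53 targets lie near 0 when K was added to G (1 of 30) and to the right with K alone (19 of 30).

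For 3 redox genes the rise with K was smaller when G was present, in calls that were mostly lost when 1 array was left out. Gclc rose by 2.90 with K alone and by 1.61 on addition to G (difference -1.29, adjusted p = 0.0147), and Gsta4 by 4.88 and 3.28 (difference -1.60, adjusted p = 0.0453). The oxidase Aox1 rose by 2.23 and 0.92 (adjusted p = 0.0465). Of the 3, none passed with the solvent difference subtracted, and on leaving out each of 8 arrays in turn Gclc passed 1 time and Gsta4 and Aox1 never. In the other direction, and in calls kept without each of the 8 arrays, Ltbp1 and Slc7a1 had positive differences. Ltbp1 moved by -0.45 with K alone and by 1.29 on addition to G (difference 1.74, adjusted p = 0.00314), and it passed with the solvent subtracted too (adjusted p = 0.0459). Slc7a1 moved by -0.29 and 1.25 (difference 1.54, adjusted p = 0.00269, and 0.0814 with the solvent subtracted). Anxa8, an annexin, measured 6.96 and 7.20 in DMSO and 7.84 and 7.89 with K, but 8.69 and 8.87 with G and 6.63 and 6.86 with the mixture (difference -2.82, adjusted p = 0.000226, and 0.0111 with the solvent subtracted).

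At the same total of 120 µM, the mixture was set against 120 µM G, so that the second 60 µM was either K or more G. The mixture was higher in 1006 transcript clusters (4.53%) and lower in 622 (2.8%), 1628 in all and 704 to 963 when any 1 of these 4 arrays was left out. Of the 40 genes of G2/M and mitosis 35 were higher and none lower with the mixture, and of the 43 DNA replication genes 28 were higher. The second 60 µM of G lowered 33 of the 40 mitosis genes (1.97% of all transcript clusters were lower and 1.57% higher) and raised 1. The median log2 fold change of the mitosis list was 0.11 when K was added to 60 µM G and -1.03 when G was. These comparisons share the arrays of 60 µM G, 120 µM G or the mixture, so their values are given side by side only.

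Several genes went opposite ways under the 2 additions. Igfbp5 rose by 2.57 when K was added and fell by 2.63 when G was (adjusted p = 0.000162), with 7.01 and 7.69 in 120 µM G. The direct difference between the mixture and 120 µM G was 5.19 (adjusted p = 1.67e-07). Ddit3 moved by -1.23 and 1.29 (direct difference -2.52, adjusted p = 1.85e-07), and Txnip by -2.55 and 0.95 (-3.50, adjusted p = 6.67e-09). The ADAM family genes Adam12 and Adam23 moved by 2.20 and 2.35 with K and by -1.14 and -0.97 with G. The immediate early gene Egr1 moved by -1.50 and 0.80 (direct difference -2.30, adjusted p = 0.000204). Itgbl1, in contrast, fell under both, by 3.08 and 2.26. The solvent difference of 0.1% against 0.05% DMSO applies to the mixture in each of these comparisons.

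**Figure D5:**
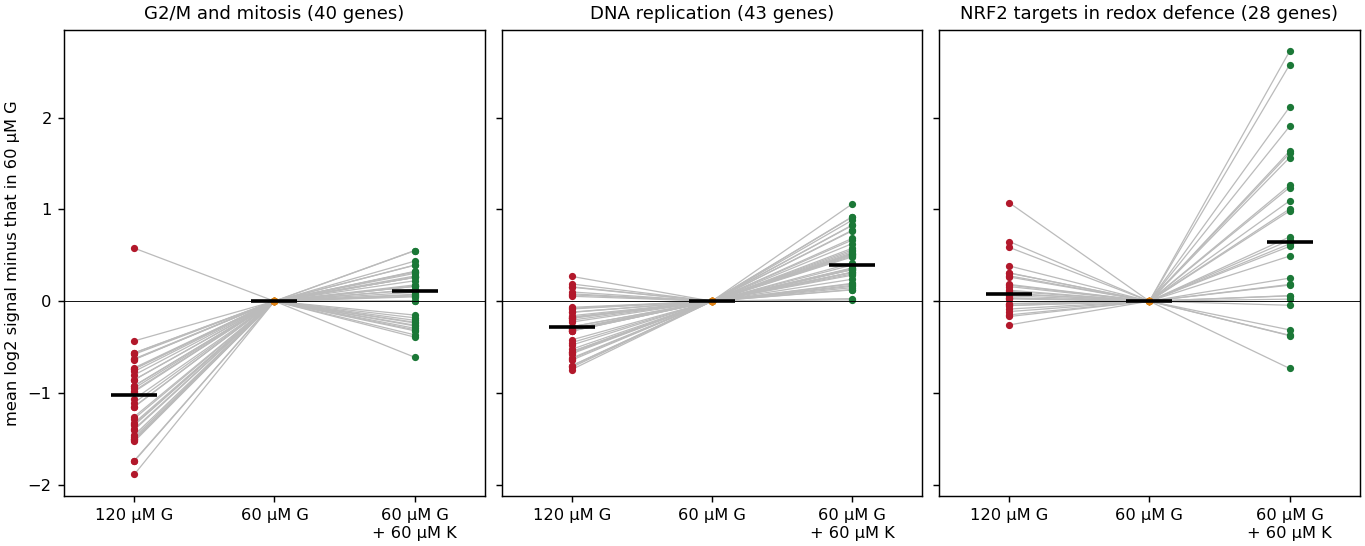
Mean log2 signal relative to 60 µM G in 120 µM G and in the 120 µM mixture, with 1 line per gene and a bar at the median, for the lists of G2/M and mitosis, DNA replication and NRF2 targets. Genes of G2/M and mitosis lie below 0 in 120 µM G (median -1.03) and near 0 in the mixture (median 0.11).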

How the data were processed

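RNA of murine MPS I fibroblasts was measured on Clariom S mouse arrays, 2 arrays in each of 8 groups. The deposited values are log2 signals per transcript cluster, which the authors normalized across arrays with RMA (sst-rma in the column names of the annotation table), using Affymetrix Expression Console and Transcriptome Analysis Console per the submitters' processing notes. Tool versions and genome build: not given in the sources used here. Such scaling makes arrays alike in distribution, so a shift common to most genes would not be seen. The methods of the study give 3 replicates, and 2 arrays per group were analysed here.

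A mean per group was fitted to all 16 arrays with limma 3.58.1 in R 4.3.3 (8 residual and 5.81 prior degrees of freedom), tests were two-sided, and p was adjusted by Benjamini-Hochberg over all 22206 transcript clusters, with a threshold of 0.05. Besides the mixture minus G, contrasts were the same relative to each treatment's own DMSO, K alone, their difference, the mixture minus 120 µM G, 120 minus 60 µM G and 0.1% minus 0.05% DMSO. For the 203 symbols with several transcript clusters the brightest was used. Dim means that neither array of a group exceeded its median of 5222 negative controls, a definition made with the signals in view. Where 1 group was dim, the fold change is a lower bound: the dim side was set, on each array, to the negative control median or to its own signal if higher.

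The genes named were the 12 largest rises and 12 largest falls that passed and were not dim in both groups, up to 3 per direction from each of 41 gene lists, the 6 largest differences with against without G in each direction, and Idua, B2m and Gapdh. Some genes that this rule takes in are not reported here. Other list members and markers, Gss and Gm2888, were named after their values were seen. The comparison, the lists and this rule were chosen with earlier results of these data known. The alternatives tried were another prior, 2 normalizations, a filter on dim transcript clusters, the annotation table's values, fewer arrays in the fit, a replicate block, leaving out each array and the fold change criterion of the study. The fit was tested on simulated data. Promoter sequences were from RefSeq (GRCm38.p6), using the first listed start of a gene.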

Additional observations from a re-analysis of the deposited data

Results flagged for a closer look

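For the genes below the effect of 60 µM K differed with and without 60 µM G by limma's test of the difference itself, and each value is that difference on the log2 scale, the change on addition to G minus the change with K alone. It was negative for 1700007K13Rik (-3.12), Cd80 (-3.04), Prrg4 (-2.86), Anxa8 (-2.82), Ano3 (-2.46) and Dcxr (-2.38), which had the largest negative values. Of these, Dcxr, a carbonyl reductase, measured 10.43 and 10.13 in 0.05% DMSO, 12.35 and 12.29 with K and 13.02 and 13.11 with G and 12.80 and 12.64 with the mixture. Cd80 measured 5.83 and 5.46 and 5.99 and 6.45 in the first 2 groups and 7.64 and 8.45 with G and 5.55 and 5.61 with the mixture. The p53 targets were Trp53inp1 (-2.24), Eda2r (-2.09), Ddit4 (-1.80), Pmaip1 (-1.68), Phlda3 (-1.65), Zmat3 (-1.59), Cdkn1a (-1.22), Polk (-1.16) and Ccng1 (-1.0). Among the other genes named, Gsta4 (-1.60), Cd68 (-1.55), Aox1 (-1.31), Gclc (-1.29) and Txnip (-1.01) had negative differences.

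The difference was positive for Eno3 (2.08), Plac9a (1.86), Tceanc2 (1.84), Hmgn5 (1.81), Ltbp1 (1.74), Apln (1.72), Lrp8 (1.59) and Slc7a1 (1.54). Eno3, the enolase of muscle, measured 9.82 and 9.45 in 0.05% DMSO, 7.04 and 7.41 with K and 6.91 and 6.82 with G and 6.40 and 6.65 with the mixture, the mixture being dim. With the solvent difference subtracted the test was passed by Anxa8, Dcxr, Eda2r, Eno3, Tceanc2 and Ltbp1 of the genes above. No group had enough arrays for a search for single arrays that stand apart.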

How the results depend on the processing

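Leaving out 1 array in turn gave 521 to 1002 transcript clusters in place of 1549 for K added to G, 245 to 853 in place of 810 relative to own solvents (853 without the first 0.1% DMSO array, 245 without the second mixture array), 13 to 29 in place of 84 for the difference with and without G, 1150 to 1354 in place of 2247 for K alone and 704 to 963 in place of 1628 for the mixture against 120 µM G. A lone array was assumed to vary like the other groups. Fitting only the arrays compared gave 1011, 409 and 999 for K added, own solvents and the mixture against 120 µM G. Subtracting the solvent difference gave 810 for K added and 9 for the difference with and without G. A variance trend with a robust prior gave 1314 relative to own solvents and 311 for the difference, and the transcript clusters brighter than the median 247 for the difference. The fold change criterion of the study, above 1.3 or below 0.7 and without a test, gave 4293, 7071, 4771, 4268 and 3573 in the order above. The cause of these changes was not tested, beyond the fewer arrays or transcript clusters in a fit.

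The labels number the replicates and do not say whether arrays with the same number belong together. The main fit did not pair them. Arrays of G and the mixture with the same number deviated from their group means with a correlation of -0.044, and the 28 pairs of groups lay between -0.14 and 0.14. With the replicate block the counts were 1535, 785, 68, 2237 and 1631. Of 143 named genes that passed, 4 no longer passed with centred arrays, 6 after quantile normalization, 3 with the replicate block, 31 with only the arrays compared, 44 to 61 without 1 array and 63 with the solvent difference subtracted. In this last setting Fgf18, dim with the mixture, went from -0.69 to 0.01 (0.00744, adjusted p = 0.99), so that its sign turned, and no other named gene that passed turned its sign under these settings. At 2 arrays per group, the 95% interval of a log2 fold change reached 0.40 to either side of it at the median.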
